A study of Mus musculus with 33 samples.

Results

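Lung RNA 12 h after birth into room air was compared with lung RNA 6 h after birth. The members were the 6 arrays whose titles give these times at 21% oxygen, 3 at 12 h and 3 at 6 h, of 33 arrays in the series. Each held total RNA of a whole lung from a newborn mouse of the strain labelled BL/57 (C57B/6J dams in the study's methods), with no agent named in the labels beyond 21% oxygen. The series covers 24 lung arrays and 9 liver arrays around birth, and the study asked which genes change as the lung begins to breathe. No label states whether the 3 mice of a time came from 1 litter or several, so that p-values measure the spread between these samples. The signals at fetal day 21 (F21), 2 h and 24 h are given beside the comparison only as levels.

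At birth the lung clears its fluid, fills with air and receives the whole output of the right heart. Surfactant from type 2 cells keeps the air spaces open, flat type 1 cells carry gas exchange, and capillary endothelium, smooth muscle and matrix are remodelled over the following hours and days. Stress hormones, stretch and oxygen are known to switch on immediate early genes, whose short-lived transcripts decline within hours, and blood leukocytes enter the newborn lung.

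Between 6 h and 12 h, few transcripts passed the test. A probe set that missed the threshold is not thereby shown to be unchanged. Of 6116 probe sets tested, 9 passed an adjusted p of 0.05 in limma (0.147%), with 1 higher at 12 h (0.0164%) and 8 lower (0.131%). The falls were those of Actb at both of its probe sets, Sdc4, Scd1, Pim1, Gnb1, Hdc and a probe set that carries no gene symbol. Cdk2ap1 was the single rise. The count was 0 without the second 6 h array (limma, with 578 probe sets at an unadjusted p under 0.05) and 14 without the first 12 h array, and 5 without the first 6 h array or the third 12 h array. In the 6 fits that left out 1 array, the call was kept in 5 by Sdc4, the unnamed probe set and 1 Actb probe set, in 3 by Scd1, in 2 by Pim1, Gnb1, Hdc and the other Actb probe set, and in 1 by Cdk2ap1, and without the second 6 h array their adjusted p were 0.0805 to 0.144. Scd1 also missed the threshold without the first 6 h array or the third 12 h array (adjusted p = 0.0684 and 0.0514 in limma). Pim1 and Hdc missed it without the first 6 h, the second 12 h or the third 12 h array, at 0.0991 to 0.141 and 0.112 to 0.183. The other Actb probe set missed it without the third 6 h, the second 12 h or the third 12 h array, at 0.0796 to 0.0991. Gnb1 missed it without the third 6 h, the first 12 h or the third 12 h array, at 0.0554 to 0.141, and Cdk2ap1 without any array but the third 6 h array, at 0.0514 to 0.127. The direction was kept in each of these fits. Without adjustment, 205 probe sets had a p under 0.01, 108 higher and 97 lower, against 61.2 expected by chance among those tested. All 3 arrays at 12 h lay above all 3 at 6 h at 587 probe sets (9.6%) and below them at 450 (7.36%). The median difference of all probe sets was log2 0.02, and the median standard error 0.31.

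**Figure D1:**
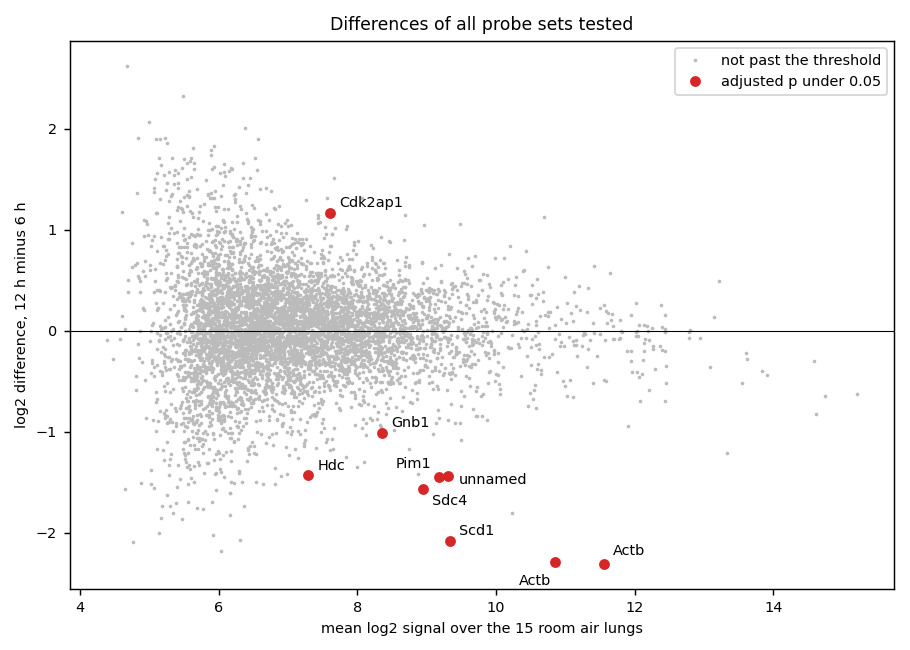
The log2 difference between 12 h and 6 h (vertical axis) is plotted against the mean log2 signal over the 15 room air lungs (horizontal axis) for the 6116 probe sets tested. Red points mark the 9 that passed, of which 8 lie below 0 and only Cdk2ap1 above it.

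The arrays of the 2 times also differed in their control probe sets. The spike controls are bacterial and phage RNAs added during preparation and not made by the lung. The BioB 3′ signal was 259, 293 and 501 at 6 h and 87.1, 99.5 and 73.9 at 12 h. All 9 BioB, BioC, BioD and Cre probe sets lay lower at 12 h with no overlap, by 2.19-fold to 3.90-fold. The BioB 3′ signal was 227 to 529 at F21, 75.9 to 111 at 2 h and 110 to 188 at 24 h. The probe sets for 18S ribosomal RNA, which the lung makes, differed the most. They were lower at 12 h with no overlap, by 4.36-fold at the 3′ end and 7.88-fold at the 5′ end, and in the middle gave 261, 731 and 279 at 6 h and 16, 9.7 and 12.3 at 12 h. Gapdh, the glycolytic enzyme used to check RNA, overlapped between 6 h and 12 h at its control probe sets, and its 3′ to 5′ ratio was 0.837 to 1.04 at 6 h and 0.734 to 1.02 at 12 h. With the log2 BioB signal as a covariate, none of the 9 probe sets passed in limma (503 of all probe sets had an unadjusted p under 0.05). Their standard errors were 0.33 to 0.61 in that fit, against 0.18 to 0.39 in the main fit. A call lost there does not by itself show a smaller difference. The BioB 3′ signal varied within a time and overlapped between 2 h and 12 h. The other spike probe sets were lower at 12 h than at 2 h without overlap. Cre 3′ was at 7420 to 8236.5 at 2 h and 3885 to 4966 at 12 h. No spike overlapped between 6 h and 12 h. For the comparison of these 2 times, array processing and time therefore cannot be told apart. The part of array processing or of the 18S signal in each result below was not tested otherwise.

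**Figure D2:**
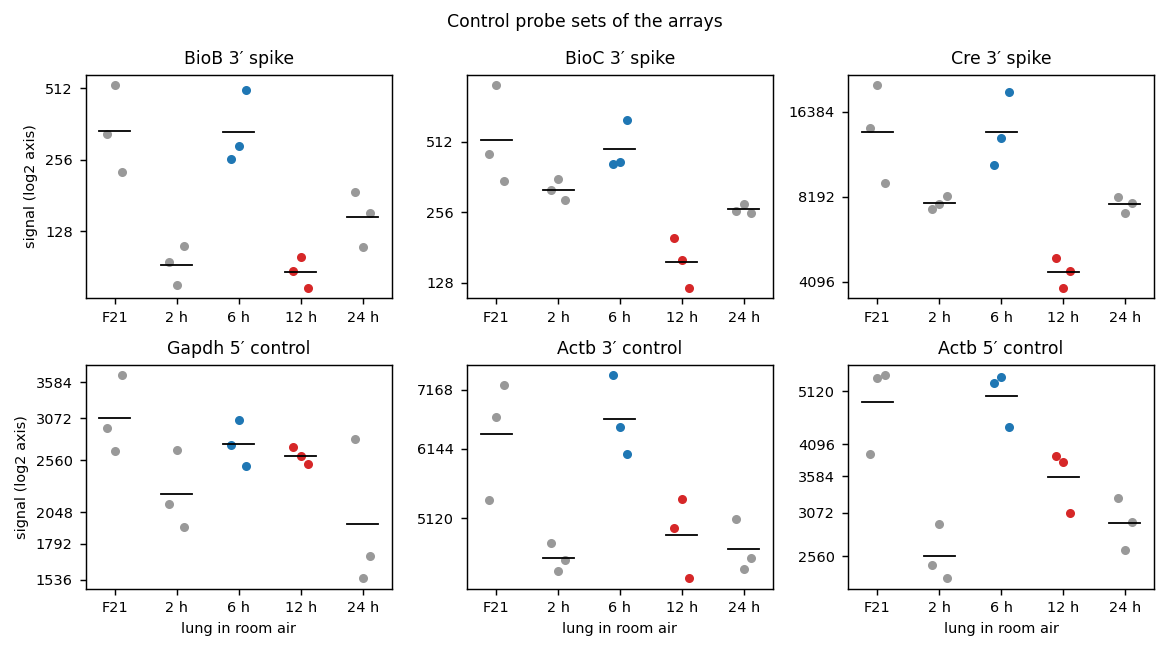
Signals of 6 control probe sets (vertical axes, log2 scale) are shown for each of the 15 room air lung arrays by time (horizontal axes), with a line at the geometric mean of 3 arrays. BioB, BioC and Cre are lower at 12 h (red) than at 6 h (blue) without overlap, as are the Actb controls by a smaller factor, and Gapdh overlaps.

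The tissue label was checked on marker genes. The type 2 markers Sftpc and Sftpb, the type 1 marker Ager and the club cell marker Scgb1a1 were bright on all 6 arrays, with Scgb1a1 at 7444 to 9125 at 6 h and 7173 to 9096 at 12 h. The macrophage markers Marco and Adgre1 stayed at or under 34.9 and were not tested, while Cd68 was at 102 to 147 at 6 h and 83.1 to 166 at 12 h. The 6 heart and skeletal muscle markers summed to 740.0 to 1687 at 6 h and 790.3 to 2318 at 12 h, and Nppa, an atrial hormone, ranged from 32.0 to 715 within the 12 h group. Albumin stayed at or under 98.7 in both groups. The 3 blood markers on the array summed to 32153 to 38113 at 6 h and 15163 to 27412 at 12 h, nearly all of it Hba-a1. In whole lung, fewer cells of a type and less RNA per cell cannot be told apart.

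Sdc4, Scd1, Pim1 and Hdc fell, and at the probe sets that passed, the mean of each was highest at 6 h and lowest at 12 h among the 5 times. Sdc4 encodes syndecan 4, a heparan sulfate proteoglycan of the cell surface and focal adhesions. Its signal was 743, 736 and 828 at 6 h and 262, 264 and 254 at 12 h. The 3 arrays at 12 h lay close together and all below the 6 h arrays, a 2.96-fold fall (log2 -1.56, standard error 0.23, adjusted p = 0.0112 in limma). The mean was 566 at F21, 539.8 at 2 h and 517 at 24 h.

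Scd1 encodes stearoyl-CoA desaturase, which makes monounsaturated fatty acids for membrane lipid and triglyceride. At the probe set that passed its signal was 1336, 1218 and 807 at 6 h and 356, 299.5 and 163 at 12 h. The groups were far apart, with a fall of 4.23-fold (log2 -2.08, standard error 0.32, adjusted p = 0.0112 in limma). Its other tested probe set, which is brighter, gave 2192, 2182 and 903 at 6 h and 662, 497 and 309.6 at 12 h. Those groups did not overlap either, but the difference of log2 -1.80 missed the threshold (adjusted p = 0.0548). A further probe set lay near the floor of 10 and was not tested.

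Pim1 encodes a serine/threonine kinase that cytokines induce through STAT factors. Its signal was 1338, 1182 and 736 at 6 h and 454, 378 and 334 at 12 h, against means of 489.8 at F21, 503 at 2 h and 690.1 at 24 h. The 6 h lungs thus stood above all other times by mean, and the fall to 12 h was 2.73-fold (log2 -1.45, standard error 0.25, adjusted p = 0.0223 in limma). A dimmer Pim1 probe set differed by log2 -1.18 with overlapping groups (adjusted p = 0.503). With BioB as a covariate the Pim1 difference was log2 -2.18 (adjusted p = 0.369 in limma), while those of Sdc4, Scd1 and Hdc were -0.52, -1.08 and -1.34 (adjusted p = 0.763, 0.669 and 0.574).

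Hdc encodes histidine decarboxylase, the enzyme that makes histamine, found in mast cells and basophils. It gave 284, 269 and 186 at 6 h and 116, 91.2 and 68.5 at 12 h. All arrays at 12 h lay below those at 6 h, with a fall of 2.7-fold (log2 -1.43, standard error 0.27, adjusted p = 0.0358 in limma). By 24 h the mean was 118, under the 162 of F21.

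**Figure D3:**
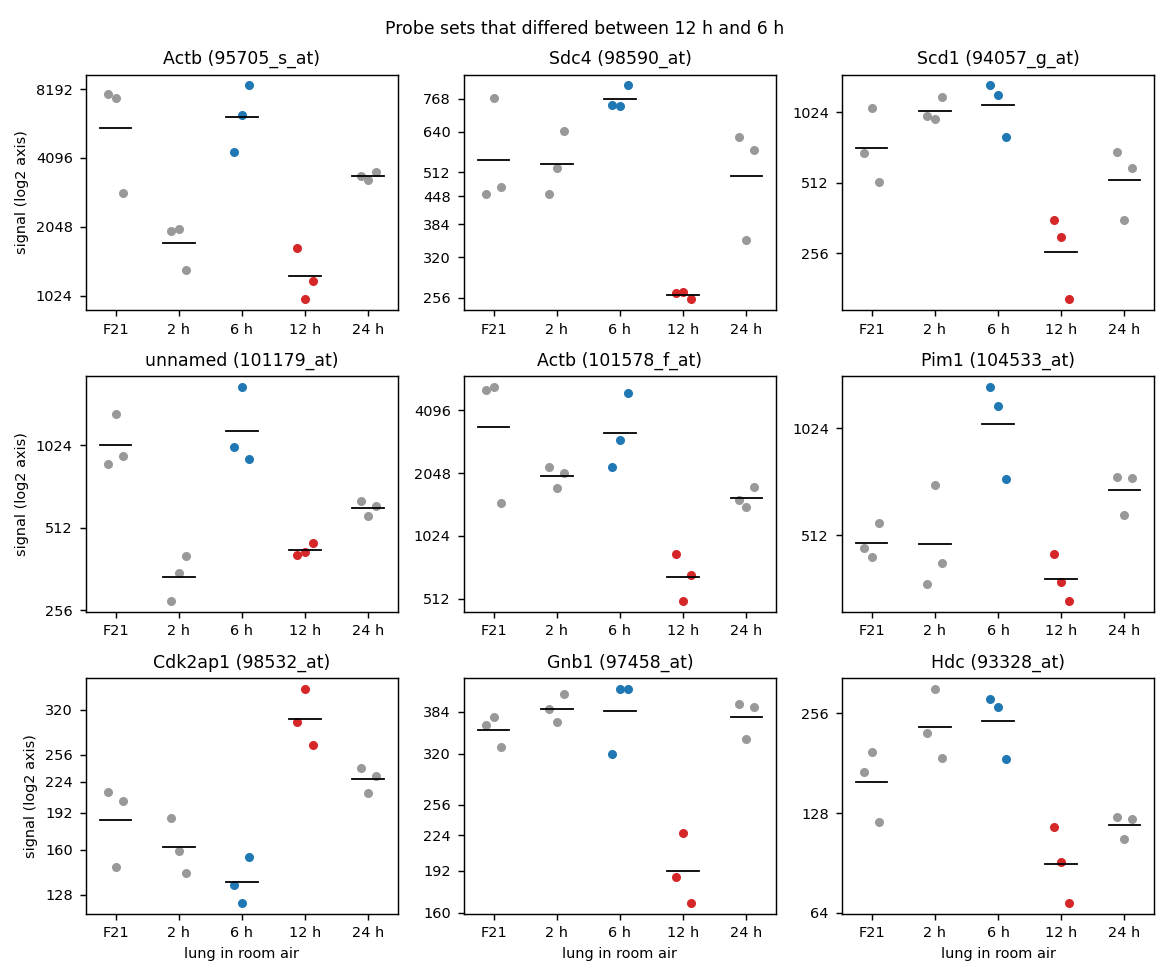
Signals (vertical axes, log2 scale) of the 9 probe sets that passed are shown for each of the 15 room air lung arrays by time (horizontal axes), with a line at the geometric mean of 3 arrays. In every panel the 6 h (blue) and 12 h (red) arrays do not overlap, and in the panels of the unnamed probe set and of the Actb probe set with suffix s_at the 2 h arrays are low as well.

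The largest falls were those of Actb, which encodes cytoplasmic beta-actin. The probe set with the suffix s_at gave 4361, 6334 and 8509 at 6 h and 1659, 988 and 1183 at 12 h, a fall of 4.95-fold (log2 -2.31, standard error 0.33, adjusted p = 0.0112 in limma). The probe set with the suffix f_at fell by 2.29 on the log2 scale (standard error 0.39, adjusted p = 0.0223). Both suffixes mark probe sets whose probes can match further transcripts. The 3 Actb control probe sets of the array, which were left out of the test, were also lower at 12 h without overlap, but only by log2 -0.44 at the 3′ end, -0.47 in the middle and -0.49 at the 5′ end. The means of the first ran 6071 at F21, 1763 at 2 h, 6401 at 6 h, 1277 at 12 h and 3416 at 24 h, so that the times with high BioB signal were those with high Actb. With BioB as a covariate the differences were log2 -1.13 and -0.42.

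Gnb1 encodes a beta subunit of heterotrimeric G proteins. At the probe set that passed its signal was 320.2, 424 and 425 at 6 h and 187, 227 and 167 at 12 h, a 2.01-fold fall (log2 -1.01, standard error 0.18, adjusted p = 0.0223 in limma). The means at F21, 2 h and 24 h were 356, 390.1 and 377, so that only the 12 h lungs stood low. Its 2 further tested probe sets overlapped between the groups, at log2 -0.45 and -0.26, and neither passed. The unnamed probe set gave 1008, 1669.6 and 914 at 6 h and 406, 419 and 451 at 12 h and fell 2.72-fold (log2 -1.44, adjusted p = 0.0112 in limma). Its lowest mean was 343 at 2 h, where BioB was also low.

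The single rise was that of Cdk2ap1, which encodes a protein that binds the cell cycle kinase CDK2 and restrains entry into S phase. Its signal was 134, 123 and 154 at 6 h and 302, 355 and 269 at 12 h. Every 12 h array was above the highest 6 h array, with a rise of 2.24-fold (log2 1.17, standard error 0.20, adjusted p = 0.0223 in limma). The mean was 188 at F21, 163 at 2 h and 227 at 24 h. The difference was log2 1.12 with BioB as a covariate, with an adjusted p of 0.532.

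The 250 bases before the start of Sdc4 and of Cdk2ap1 are printed because these are the fall with the smallest p among genes in the promoter table and the single rise. Sequences are those of RefSeq on GRCm38.p6, and 5 of the 7 genes past the threshold had 1 or more there. Sdc4 is at chr2:164443189-164443438 and Cdk2ap1 at chr5:124354629-124354878, both on the minus strand. A 30-base stretch of Pim1 at chr17:29493015-29493044, plus strand, is shown for the only match found, with the E-box in capitals, starting 58 bases before the second of 2 annotated starts.
Sdc4: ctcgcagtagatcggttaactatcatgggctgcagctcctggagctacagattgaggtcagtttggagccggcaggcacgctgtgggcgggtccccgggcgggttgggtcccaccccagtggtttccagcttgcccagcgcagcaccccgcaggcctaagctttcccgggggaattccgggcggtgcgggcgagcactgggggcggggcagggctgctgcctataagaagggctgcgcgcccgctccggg
Cdk2ap1: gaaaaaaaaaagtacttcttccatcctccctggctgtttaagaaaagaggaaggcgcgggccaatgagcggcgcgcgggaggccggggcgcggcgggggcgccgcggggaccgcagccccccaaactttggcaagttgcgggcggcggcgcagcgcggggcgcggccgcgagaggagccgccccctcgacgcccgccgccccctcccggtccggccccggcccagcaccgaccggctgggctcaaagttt
Pim1: gtaaacaggaatCACGTGgtctgaaaccag
Both strands were searched for the E-box CACGTG bound by clock and MYC proteins, the D-box TTATGTAA of clock output factors, the cAMP response element TGACGTCA and the heat shock element GAANNTTC. Of the 5 genes, 1 held an E-box, Pim1, and none held any of the others. Among all 32851 promoters the shares were 6.02%, 0.819%, 1.55% and 6.69%. Among the 3846 tested genes with a promoter, 10.7% held an E-box.

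Other genes with no overlap between the groups had the next smallest p and did not pass. Among those higher at 12 h were Rere, a co-repressor of the atrophin family (log2 1.01, adjusted p = 0.0569 in limma), Gtf3c1, a subunit of the RNA polymerase III factor TFIIIC (1.07), Srpr, a subunit of the receptor that docks ribosomes at the endoplasmic reticulum (1.05), and Ctbp1, a co-repressor (0.76). Rere gave 113, 126 and 151 at 6 h and 287, 226 and 269 at 12 h. At F21, 2 h and 24 h its mean was 246, 311 and 244, so that the 6 h lungs were the low ones. Gtf3c1 and Ctbp1 also had their lowest mean at 6 h. A brighter tested probe set of Srpr differed by only log2 0.35 (adjusted p = 0.471 in limma). Ino80e, a subunit of the INO80 chromatin remodeler, was dim, at 26.8, 22.3 and 29.3 at 6 h and 126, 115 and 150.0 at 12 h (log2 2.32, adjusted p = 0.086), and its second probe set gave 0.85. At F21, 2 h and 24 h the first Ino80e probe set was at most 88.0, so that it may have entered the test through the 12 h arrays. Olfr94, an olfactory receptor, differed by log2 1.90 and Pspn, a growth factor related to GDNF, by 1.36.

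Among those lower at 12 h, Lrrc8a, a subunit of volume-regulated anion channels, gave 386, 411 and 439 at 6 h and 271, 200.1 and 203 at 12 h (log2 -0.89, adjusted p = 0.0569 in limma). Its 12 h level was close to the mean of 231 at F21. Abca1, which exports cholesterol, was at 100.3, 100.4 and 62.6 and then 38.3, 10.1 and 24.2 (log2 -2.02, adjusted p = 0.0606), and at log2 -0.96 at its second probe set. Zfp1, a zinc finger protein, gave log2 -2.18, with 1 of its 12 h signals under the floor, and 0.15 at a dim, untested probe set.

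Among neutrophil and alarm genes, S100a9 and S100a8 had their highest means at 6 h. S100a9 and S100a8 encode the paired subunits of calprotectin, the main cytosolic protein of neutrophils. S100a9 was at 565, 526 and 377 at 6 h and 253, 178 and 250.2 at 12 h, and S100a8 at 1401, 1509 and 765 and 478, 499.7 and 597. The groups did not overlap at either gene, but neither passed (log2 -1.11, adjusted p = 0.0602, and log2 -1.17, adjusted p = 0.0975, in limma). In the 18 other limma fits, S100a9 passed in 6 (adjusted p of 0.0167 to 0.516 over the 18) and S100a8 in 2 (0.0226 to 0.58). Their F21 means were 63.5 and 145, so that both remained above the fetal level at 12 h by mean. Of 13 genes of this list tested, 4 lay lower at 12 h with no overlap, the others being the decoy receptor Il1r2 and the granule protease Elane (named after their values were seen), and none higher. The median was log2 -0.23, with 9 genes below 0 and 4 above it. Chil3 was the highest at 0.35, and Lcn2 was at 0.06, both with overlapping groups. With 1 probe set per gene, 7.18% of all 4761 genes tested lay lower with no overlap and 10.2% higher, 0.105% passed as lower and 0.021% as higher, and the median was log2 0.03. Cd14, the monocyte coreceptor for endotoxin, was also highest at 6 h, with 558, 559.6 and 358 against 272, 349 and 274 at 12 h (log2 -0.70, adjusted p = 0.258), though the macrophage and monocyte list as a whole had 2 of 23 genes lower with no overlap and a median of -0.05.

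Immediate early genes and their feedback inhibitors were mostly lower at 12 h, without any passing alone. Of 41 tested, 11 lay lower with no overlap (26.8%) and none higher, against 7.18% and 10.2% of all genes. The difference was negative in 36, and the median was log2 -0.44. That median was between -0.57 and -0.29 in the fits that left out 1 array, and -0.82 with BioB as a covariate. Relative to the 6 h mean, the list's median was -0.21, -0.57 and -0.44 on the 12 h arrays. It was 0.17, 0.03 and -0.21 on the 6 h arrays, so that the first 12 h array was level with the third 6 h array. The smallest p were those of Gadd45b, a stress-induced growth arrest protein (log2 -0.99), and Klf10, a TGF-beta-induced repressor (-0.58). Dusp1, the phosphatase that shuts off MAP kinases, was named after its values were seen. It gave 1152, 853 and 752 at 6 h and 625, 342 and 517 at 12 h (log2 -0.91, adjusted p = 0.4 in limma). Its mean of 495 at 12 h was still above the 169 of F21 and below the 1559.7 of 2 h. The 9 Kruppel-like factors tested had a median of log2 -0.43, with 2 lower without overlap, and Klf6 at -0.95. The immediate early list also holds Klf2, Klf4, Klf6 and Klf10, so that these list medians are not separate observations.

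Glucocorticoid-responsive genes showed a wide spread within the 12 h group. Their list shares Cebpb, Cebpd, Dusp1, Errfi1 and Nfkbia with the immediate early list. Of 20 tested, 18 had a negative difference and the median was log2 -0.71, the lowest of the lists, yet only 2 had no overlap. Relative to the 6 h mean, the median of these genes was 0.18, -1.24 and -0.73 on the 3 arrays at 12 h, and 0.20, -0.08 and -0.26 on those at 6 h. The first 12 h lung was thus at the 6 h level and the other two were lower, and the list's median was -1.11 without the first and -0.19 without the second. Cebpd, a transcription factor of the acute phase, gave 851, 879.6 and 617 at 6 h and 880.0, 199 and 317 at 12 h, and Sgk1, a kinase that raises epithelial sodium uptake, 608, 489.9 and 275 and 487, 152 and 184. The p53 target Cdkn1a, which encodes the cell cycle inhibitor p21, had 435, 501 and 451 and 758, 171 and 277. In each the first 12 h lung stood well above the other two, and the groups overlapped. Cdkn1c, another inhibitor of this family, did not overlap between the groups, with 376, 398 and 295 at 6 h and 279.9, 216 and 181 at 12 h (log2 -0.67, adjusted p = 0.251 in limma).

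Sqle and Idi1, of cholesterol synthesis, showed the opposite order within the 12 h group. Sqle, which makes squalene epoxide, was named after its values were seen and gave 51.2, 60.9 and 64.6 at 6 h and 67.9, 295 and 188 at 12 h. Idi1, an isomerase of the same route, gave 43.8, 56.3 and 67.2 and 134, 320.0 and 249.5 (log2 2.00, adjusted p = 0.251 in limma). The first 12 h lung was the lowest of its group at both. The list also holds Scd1, at the other end of its range, and had 3 genes higher and 3 lower without overlap of 24, with a median of log2 0.11. Of 22 genes of fatty acid oxidation and ketone metabolism, 3 lay higher with no overlap, among them Cpt1a, the gate of mitochondrial fatty acid import (186, 204 and 158 at 6 h and 207, 449.9 and 366 at 12 h).

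**Figure D4:**
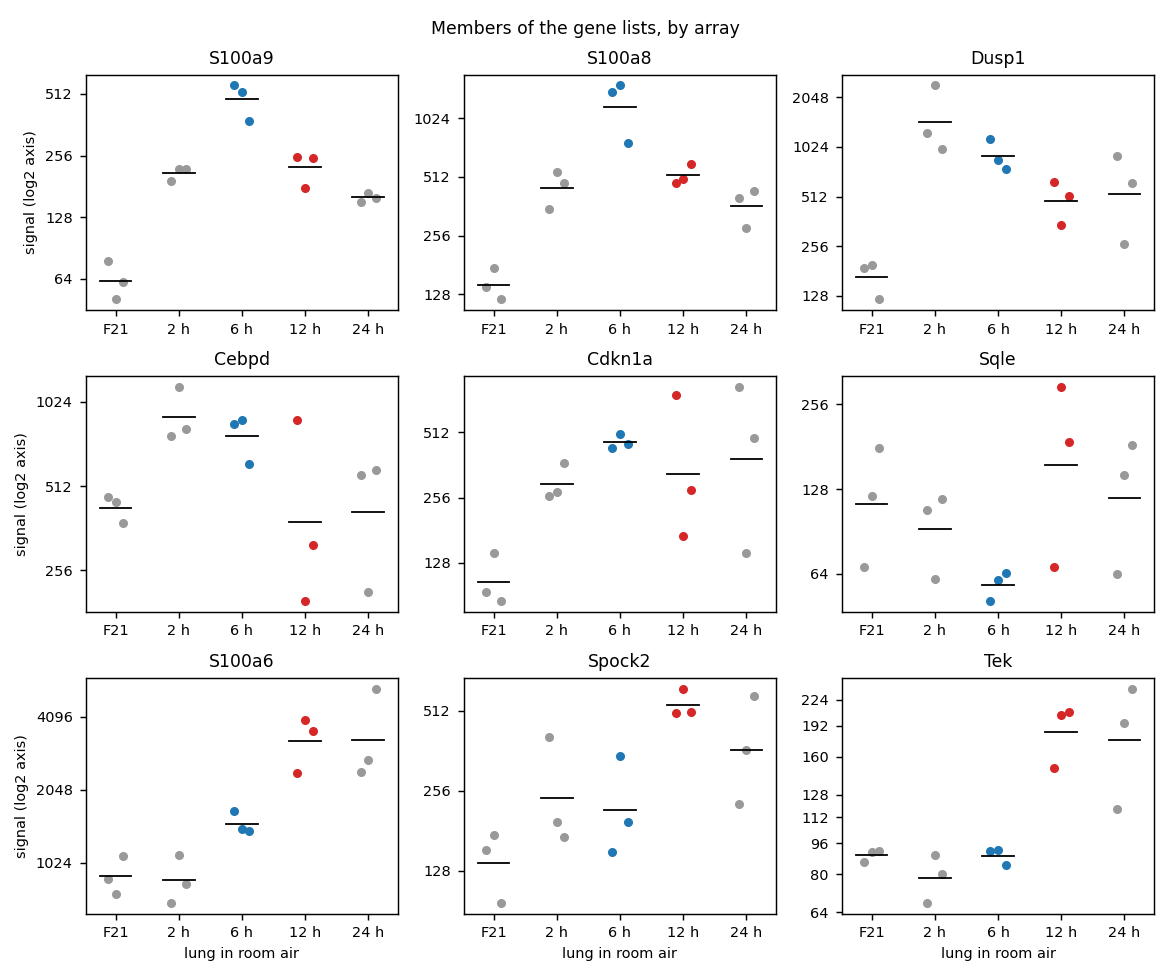
Signals (vertical axes, log2 scale) of 9 list members, none of which passed, are shown for each of the 15 room air lung arrays by time (horizontal axes), with a line at the geometric mean of 3 arrays. S100a9 and S100a8 peak at 6 h (blue), Cebpd and Cdkn1a have 1 high and 2 low arrays at 12 h (red), and S100a6, Spock2 and Tek are higher at 12 h without overlap.

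Of 19 type 1 cell genes tested, none passed, 13 had a positive and 6 a negative difference, and the median was log2 0.35. With no overlap, 6 lay higher at 12 h (31.6%) and none lower, against 10.2% and 7.18% of all genes. Relative to the 6 h mean, the list's median was 0.12, 0.30 and 0.63 on the 12 h arrays. It was 0.14, 0.08 and -0.26 on the 6 h arrays, so that the first 12 h array lay within the 6 h range. The median difference of the list was -0.17 with BioB as a covariate and 0.16 without the third 6 h array. The type 1 markers Ager, a receptor of the basal membrane, and Pdpn, podoplanin, overlapped, at log2 0.06 and -0.02. The type 1 marker Hopx did not, with 1029 to 1656 at 6 h and 1825 to 2306 at 12 h (log2 0.63, adjusted p = 0.498 in limma). Timp3, a metalloproteinase inhibitor, was the lowest member at -0.45. S100a6, a calcium-binding protein, gave 1671, 1412 and 1379 at 6 h and 2403, 3971 and 3571 at 12 h (log2 1.13, adjusted p = 0.15 in limma), and its mean at 24 h was 3488. Spock2, a matrix proteoglycan, gave 151, 348 and 196 and 503, 619.9 and 506 (log2 1.32, adjusted p = 0.232). Both had their lowest means before 6 h. Aqp1, the water channel of capillary endothelium, was at 1499.5, 1444 and 1277 and 2053, 1852 and 2127 (log2 0.52, adjusted p = 0.352), and headed the ion and water transport list by p, where 2 of 24 lay higher without overlap.

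Among endothelial genes, Tek, the angiopoietin receptor, gave 91.5, 92.3 and 84.3 at 6 h and 149, 205 and 208 at 12 h and was close to its 6 h level at F21 and 2 h (means of 89.6 and 79). Emcn, a sialoprotein of capillary and venous endothelium, gave 315, 325 and 360.5 and 167, 246 and 162. Neither passed (adjusted p = 0.155 and 0.108 in limma), nor did any of the 35 genes tested, of which 4 lay higher and 6 lower with no overlap (11.4% and 17.1%, against 10.2% and 7.18% of all genes). Emcn was at log2 -0.51 at a second tested probe set (adjusted p = 0.401) and at 0.42 at a dim, untested one. The adhesion protein Cdh5 was at 389 to 521 at 6 h and 260.1 to 315 at 12 h.

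Surfactant and type 2 cell genes had 4 higher and 4 lower without overlap of 19, and a median of log2 -0.01. Sftpc, the surfactant protein C gene, gave 51117, 54585 and 60597 at 6 h and 39708, 34069.6 and 33975 at 12 h (log2 -0.63, adjusted p = 0.24 in limma). Its lowest mean of the 5 times was 18767 at 2 h, where BioB was also low. Scgb1a1 and the club and ciliated list overlapped throughout, with 0 of 10 genes lower and 0 higher, and its leading genes Aldh1a1, a retinal dehydrogenase, and Cyp2f2, a cytochrome P450, at 0.89 and 0.62.

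Matrix genes had shares without overlap near those of all genes. Of 52 tested, none passed, 5 lay higher and 6 lower with no overlap (9.62% and 11.5%, against 10.2% and 7.18%), with a median of log2 -0.03. Col1a1, the main chain of type I collagen, gave 1659.6, 2172 and 1586 at 6 h and 1122, 1366 and 1034 at 12 h at 1 probe set (log2 -0.62, adjusted p = 0.258 in limma), and log2 0.72 at its other, so that no direction holds for the gene. Col9a1, a cartilage collagen, was at 237, 284 and 323 and 67.1, 149.7 and 157 (log2 -1.26). Fn1, fibronectin, was at 1113, 1359 and 1099.8 and 916, 896 and 864 (log2 -0.41, adjusted p = 0.396).

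None of the 9 genes tested among those the study names in its account of birth passed. Klf4, the transcription factor it follows, was at 370.5, 321 and 231 at 6 h and 265, 167 and 311 at 12 h, with overlapping groups (log2 -0.33, adjusted p = 0.785 in limma) and means of 88.1 at F21 and 487 at 2 h. Klf5, a related factor, differed by log2 0.00, with either sign across the alternatives. Acta2, smooth muscle actin, differed by log2 -0.34, Itgb1, integrin beta 1, by -0.50, Tnc, tenascin C, by 0.42 and Pcna, the replication clamp, by -0.55. Of the 9, 3 lay lower with no overlap (33.3%) and none higher, against 7.18% and 10.2% of all genes. These were Fn1, Col1a1 at 1 of its 2 probe sets and Pcna, which was at 167, 152 and 118 and 106, 116 and 77.6.

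In the smooth muscle, actin and myosin list, Actb was the only member to pass of 36, and Tmsb10, an actin monomer-binding protein, lay higher without overlap (2594, 3036 and 2993 at 6 h and 3644, 5628 and 3785 at 12 h). None of the other 31 lists held a member past the threshold with 1 probe set per gene. The counts without overlap below stand against 7.18% lower and 10.2% higher of all genes. Antioxidant genes had 5 of 35 lower and none higher, led by Sod1, the cytosolic superoxide dismutase, and Fth1, the ferritin heavy chain. Sod1 gave 1969, 1971 and 1832 at 6 h and 1404, 1017 and 1003 at 12 h (log2 -0.77, adjusted p = 0.11 in limma). Fth1 differed by -0.52 at this probe set, and by -0.14 at a similarly bright one (adjusted p = 0.848). Hypoxia and glycolysis genes had 2 of 30 lower and 1 higher, with Ldha, lactate dehydrogenase A, at 1524, 1330.1 and 771 and 555, 768 and 628, and P4ha1, a collagen prolyl hydroxylase, at log2 -1.05. Of 57 genes of oxidative phosphorylation, 7 lay higher and 7 lower, with the complex I subunits Ndufs1 at 0.80 and Ndufv3 at -1.45. Ndufv3 gave 47.1, 78.2 and 9.3 at 12 h, the last under the floor.

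Of 17 globin and erythroid genes, 1 lay higher and 1 lower with no overlap. Hba-a1, alpha globin, was at 30254, 35094 and 36699 at 6 h and 26381, 18737 and 14177 at 12 h (log2 -0.83, adjusted p = 0.188 in limma), and Slc4a1, the anion exchanger of red cells, differed the other way, by 0.90. The lowest Hba-a1 mean of the 5 times was 16243 at 2 h, where BioB was also low. Of 33 cell cycle genes, 3 lay higher, such as Ccnd3, cyclin D3 (0.82), and 5 lower, such as Kif23, a kinesin of cytokinesis (-1.47). Kif23 was dim, with 16.8, 7.5 and 20.2 at 12 h, the 7.5 being under the floor. Rpl13a and Rps24, of the large and small ribosomal subunit, differed by -0.95 and -0.51, 2 of 24 lying lower. Of 35 chaperone genes, 5 lay lower, such as Pdia4 (-0.89), and 2 higher, such as Cct7 (0.61). In the clock list the repressor Nr1d2 differed by -1.11 and the repressor Cry2 by 0.42, the only 1 lower and 1 higher of 14 without overlap.

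The remaining lists ranged in median from log2 -0.61 for 4 thymus genes to 0.09 for 7 mesothelial and neural genes. Usp18, which removes the ubiquitin-like modifier ISG15, was the interferon gene furthest down, at -2.01. Its signal was 107, 71.3 and 125 at 6 h and 6.8, 27.6 and 53.2 at 12 h, the 6.8 being under the floor. No array of another time was above 55.5, so that Usp18 may have entered the test through the 6 h arrays. Tap1, the peptide transporter, was at 0.49, and at -0.77 at a dim, untested probe set. The heart and skeletal muscle list had a median of -0.05, the liver list -0.50 over 5 genes, the brown fat list -0.19 over 3, the lymphocyte list -0.24, the interferon list -0.12, the retinoid list -0.01 and the p53 list -0.17. Of these, the lymphocyte list held Pax5 at -1.58 and Cd4 at -1.01, and the retinoid list Dhrs3, a retinal reductase, at -0.81. In the heart and skeletal muscle list, Cox8b, a subunit of cytochrome oxidase, was at -1.51, but at 1.03 at a dim, untested probe set, and Mybpc3, cardiac myosin-binding protein C, at -0.68. At its tested probe set Cox8b gave 9.6, 63.6 and 60.0 at 12 h, the 9.6 being under the floor. The liver list was led by Serpina1c, an antitrypsin, at -0.50 and Cyp2e1, a cytochrome P450, at -0.58, and the neural list by Uchl1, a ubiquitin hydrolase, at 0.90 and Stmn2, a microtubule regulator, at 0.43, with its untested probe sets at 0.38 and -0.24. Dntt, the terminal transferase of thymocytes, was at -1.03, with its 2 untested probe sets at -1.14 and 1.26. Lipe, hormone-sensitive lipase, was at -0.19, the fatty acid transporter Slc27a1 at -1.43 and the galectin Lgals3 at 0.61. Most members of the thymus, liver, brown fat, lymphocyte, mesothelial and neural, retinoid and interferon lists were not tested. The same held for the neutrophil and alarm, cell cycle, ribosomal, globin and erythroid, and club and ciliated lists.

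**Figure D5:**
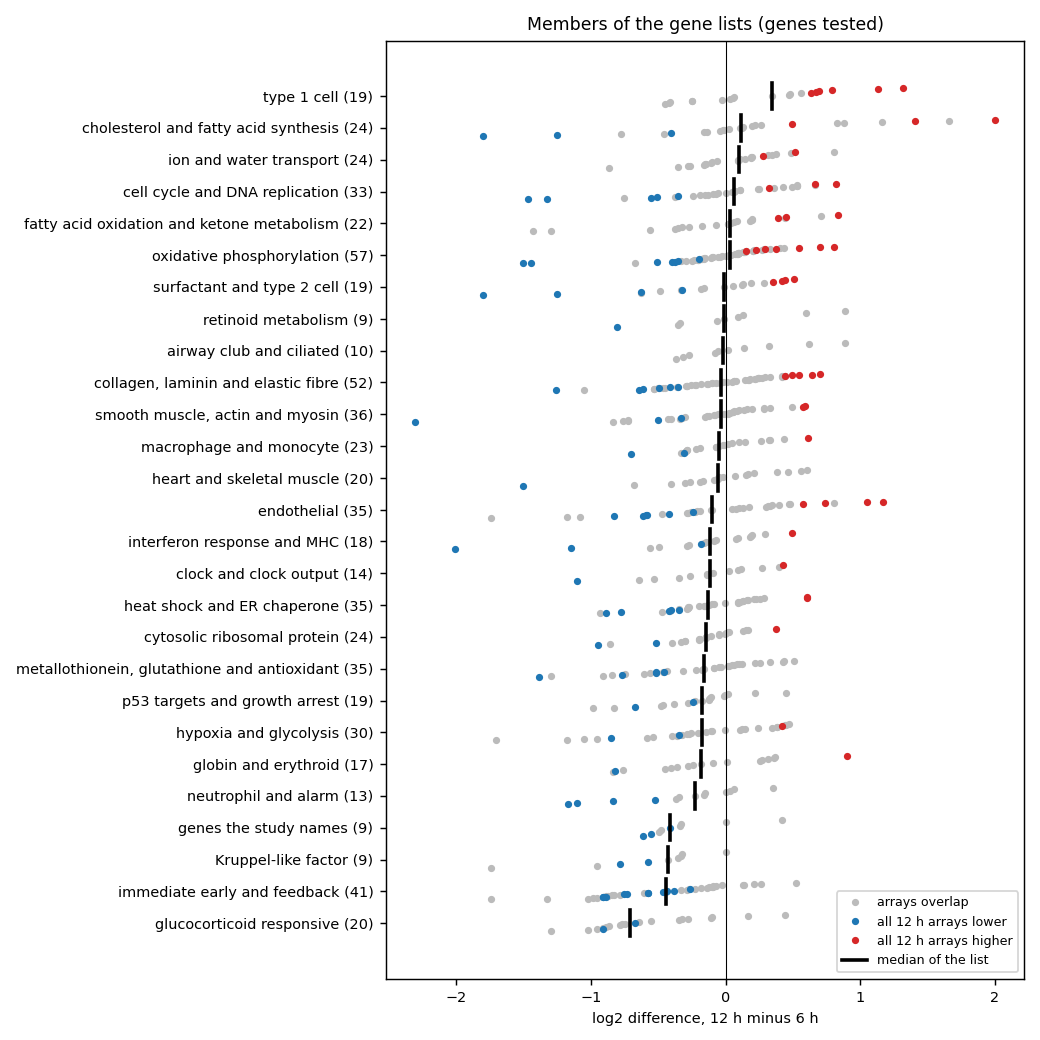
Each point is the log2 difference between 12 h and 6 h (horizontal axis) of 1 gene of a list (vertical axis, with the number of genes tested), for lists with at least 9 genes tested. Black lines are list medians, which run from -0.71 for glucocorticoid-responsive genes to 0.35 for type 1 cell genes, and blue and red points are genes whose 12 h arrays all lay below or above the 6 h arrays.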

How the data were processed

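RNA of whole lung was measured on Affymetrix MGU74Av2 arrays. The deposited values are signal intensities on a linear scale, which the authors made in MAS5 with each chip set to a target intensity of 100. They cover 12488 probe sets. Detection p-values were not used here, so that a filter on signal took the place of the authors' filter. The 66 control probe sets were left out of the test. A floor of 10 was put on the signals before log2.

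Testing needed a signal in the top 40% of an array on 3 or more of the fitted arrays. A probe set bright at a single time could thus be tested, and the filter then favours a difference from that time. The fit held the 15 room air lung arrays (5 times, 3 each, 10 residual degrees of freedom). The difference of 12 h minus 6 h was tested (two-sided) in limma 3.58.1 under R 4.3.3 with the trend option of eBayes, adjusted by Benjamini-Hochberg over all 6116 probe sets, at an adjusted p under 0.05. The code was tested on simulated data. The number of arrays limits the precision.

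Annotation of the array named 10833 probe sets with 1 gene, 396 with several and 1193 with none. The 32 gene lists (1200 genes, 948 on the array) and the members were chosen with earlier results of these data known. Each list used the brightest probe set per gene and had no set test. The text names the 10 largest rises and falls without overlap (those past the threshold first, then the smallest p), list members past the threshold or the 2 with the smallest p, and the genes the study names. Alternatives were another floor, a pseudocount of 16, quantile and cyclic loess normalization, no filter or the top 30% by median, all 24 lung arrays, the 6 arrays alone, a block on sample number, the Gapdh ratio or BioB signal as covariates, array weights, the methods' test, and leaving out each array.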

Additional observations from a re-analysis of the deposited data

How the results depend on the processing

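The 9 probe sets past the threshold were 14 with a pseudocount of 16, 17 after quantile normalization, 5 without a filter, 5 with all 24 lung arrays, 3 with the 6 arrays alone, 4 with the Gapdh ratio as a covariate, 28 with array weights and 0 with BioB as a covariate (limma, 503 at an unadjusted p under 0.05). Without 1 array the count ran from 0 (without the second 6 h array, 578 at an unadjusted p under 0.05) to 14 (without the first 12 h array). It was 13 after cyclic loess and 13 with the top 30% by median. All 9 stayed among the calls under a floor of 1, a pseudocount of 16, both normalizations, the top 30% filter, array weights and the replicate block. The methods' test, unadjusted at a p under 0.01, gave 123 with log2 signals and 131 with linear ones, and 2 and 0 after Benjamini-Hochberg adjustment (the linear form had 550 with an unadjusted p under 0.05). With sample number as a replicate block the count was 10. Arrays of the same number did not deviate together (correlations of 0.02 to 0.06), so that the numbers were not taken to pair samples.

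Of the 81 named probe sets, 9 turned in sign in at least 1 alternative, none of them past the threshold. Of those not past it, 15 passed in at least 1 other limma fit, 14 of them with array weights. With BioB as a covariate, Cct7 became -0.24, Aldh1a1 -0.63, Nr1d2 0.52, Mybpc3 0.48, Cyp2f2 -1.22, Cdkn1a 1.09, Tnc -0.050 and Klf5 -0.0023. Klf5, at 0.00, was -0.024 after quantile normalization, -0.022 after cyclic loess and -0.043 with array weights. Leaving out 1 array, Klf5 ran from -0.19 to 0.15, Acta2 from -0.54 to 0.038 (without the third 12 h array) and Tnc from -0.23 (without the second 12 h array) to 0.78. The cause was not tested.

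Signals under the floor have no order, so that dim probe sets could not be ranked, and the precision is set by 3 arrays per time.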
